A study of Mus musculus with 20 samples.

Results

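Trimethylation of histone H3 at lysine 4 (H3K4me3) was compared between Nkx2-1 mutant and wild-type medial ganglionic eminence (MGE), the ventral swelling of the embryonic forebrain in which the homeodomain factor NKX2-1 acts. The members were the regions of both H3K4me3 peak lists, called by the authors with input named as control. List entries with the same coordinates were merged into 1 region and chromosomes 1 to 19 and X were kept. This gave 43648 mutant and 34661 wild-type regions, 78309 of the 471733 regions in the 10 peak lists of the series. The mutant library came from C57BL/6 MGE at embryonic day 13.5, with a genotype given as Nkx2-1cKO, a conditional knockout. The wild-type library came from C57BL/6 MGE of the same age, labelled Wildtype. The labels name neither the Cre driver nor the deleted part of the gene, and they do not say how many embryos went into a library. Each genotype has 1 H3K4me3 library, so no value here has a replicate error, no test between genotypes could be made, and every difference describes these libraries. The same series holds mutant and wild-type lists of the marks H3K27ac, H3K4me1 and H3K27me3 from C57BL/6 MGE, and lists of NKX2-1 and LHX6 binding from basal ganglia of CD-1 wild-type embryos. These were used as further readouts.

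H3K4me3 is laid down by complexes built around the SET1 and MLL methyltransferases, mostly at CpG-rich promoters, and it is found there when a gene is active or poised. Where the repressive mark H3K27me3 covers the same promoter, the promoter is called bivalent, a state common at developmental regulators. Cell identity genes often carry H3K4me3 over long stretches that run into the gene body. In the MGE, NKX2-1 stands above Lhx6 and Lhx8, and through them above the interneurons that migrate to the cortex and the cholinergic and GABAergic neurons of the basal forebrain. In mice that lack Nkx2-1, MGE tissue is known to take on features of the neighbouring lateral ganglionic eminence (LGE), which gives rise to striatal projection neurons.

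The libraries were of similar depth, with 26.8 M tags in the mutant and 28.8 M in wild type after removal of duplicates, which made up 34% and 28.3% of the tags. The signal was not similar. A region's height, here the pileup of extended tags at its strongest summit per M (mega) tags kept, had a median mutant to wild-type ratio of 1.29 (0.36 on the log2 scale) over 28778 regions that pair 1 to 1. Height was therefore also expressed relative to this median, and the comparison of genes was repeated with the weakest mutant regions removed until both lists covered the same number of bases. All 11 of the MGE markers examined had a marked transcription start site (TSS) in both genotypes, with heights of at least 3.39 in the mutant and 5.07 in wild type. In bulk tissue, fewer cells of a type and less H3K4me3 per cell cannot be told apart.

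For each protein-coding gene of GENCODE vM1, the H3K4me3-covered length within 5 kb of its TSSs was measured. A gene was called lower or higher where the mutant to wild-type ratio of this length, with 250 bases added to each, passed 1.5-fold. Of 15224 genes with H3K4me3 in this window in either genotype, 0.328% were called lower in the mutant (50 genes) and 4.85% higher (739 genes). At equal covered bases, 3.21% were lower (479 of 14907) and 0.812% higher (121). These shares are the background for every list of genes below. The turn between these settings lies in their construction, since the second drops weak mutant regions and keeps weak wild-type ones. All 50 lower genes stayed lower at equal covered bases, as they had to, because this cut can only shorten mutant lengths. Of the 739 higher genes, which could lose the call, 121 were also called higher there.

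At Nkx2-1, the targeted gene (chr12:57632922-57637895 on mm9, minus strand), H3K4me3 covered 7.84 kb within 5 kb of the TSS in the mutant and 7.29 kb in wild type. The highest summit in this window reached 6.52 tags per M in the mutant and 6.42 in wild type, which is 0.79 relative to the median pair. The domain differed in shape. The mutant list held separate regions of 5.86 kb at the TSS and 3.86 kb downstream, while wild type had a single region of 13.0 kb. Between the mutant regions lay 4492 bases without mutant H3K4me3, which wild type covered in full and which hold the last exon. On the far side of the gene, 22.5 kb from the TSS, a mutant region of 1.88 kb (chr12:57613542-57615421) with a height of 2.46 had no wild-type partner and was among the 8 strongest regions found in the mutant alone.

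Lhx6 and Lhx8, which act below NKX2-1 in the MGE, had shorter and lower H3K4me3 domains in the mutant. At Lhx6, which encodes the LIM-homeodomain factor of MGE-derived interneurons, a wild-type region of 20.7 kb (chr2:35941644-35962333) was the sixth longest of its list. The mutant list had regions of 6.35, 0.690, 0.251 and 1.48 kb in its place. The Lhx6 summit reached 3.39 tags per M in the mutant (95% Poisson interval 2.73 to 4.16) and 5.55 in wild type (4.72 to 6.48). The intervals, which cover counting error only, do not overlap. Relative to the median pair this was 0.475, the lowest value among genes whose wild-type summit reached the median height of wild-type regions (2.22). Because much of the difference lies far into the gene, the length within 5 kb was inside the 1.5-fold limit (6.35 kb in the mutant, 7.75 kb in wild type), and within 10 kb the fold was 0.580.

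At Lhx8, the LIM-homeodomain gene of cholinergic and other basal forebrain neurons, H3K4me3 covered 7.64 kb in the mutant and 12 kb in wild type, a fold of 0.643. A wild-type region of 13.4 kb (chr3:153986555-153999935) stood against a mutant region of 4.51 kb at the TSS and 5 smaller ones. The Lhx8 height was 3.39 in the mutant (2.73 to 4.16) and 5.07 in wild type (4.28 to 5.96), or 0.520 relative to the median pair. H3K27ac, from other libraries, covered 0.781 kb in the mutant and 7.99 kb in wild type at Lhx6. At Lhx8 it covered 1.11 kb in the mutant and 9.05 kb in wild type. H3K27me3 was similar in length at both genes, with 11.3 kb in the mutant and 11.1 kb in wild type at Lhx6, and 11.8 kb and 10.7 kb at Lhx8. Peaks of NKX2-1 and LHX6 lay within 5 kb of Lhx6, and neither factor had a peak in this window at Lhx8.

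**Figure D1:**
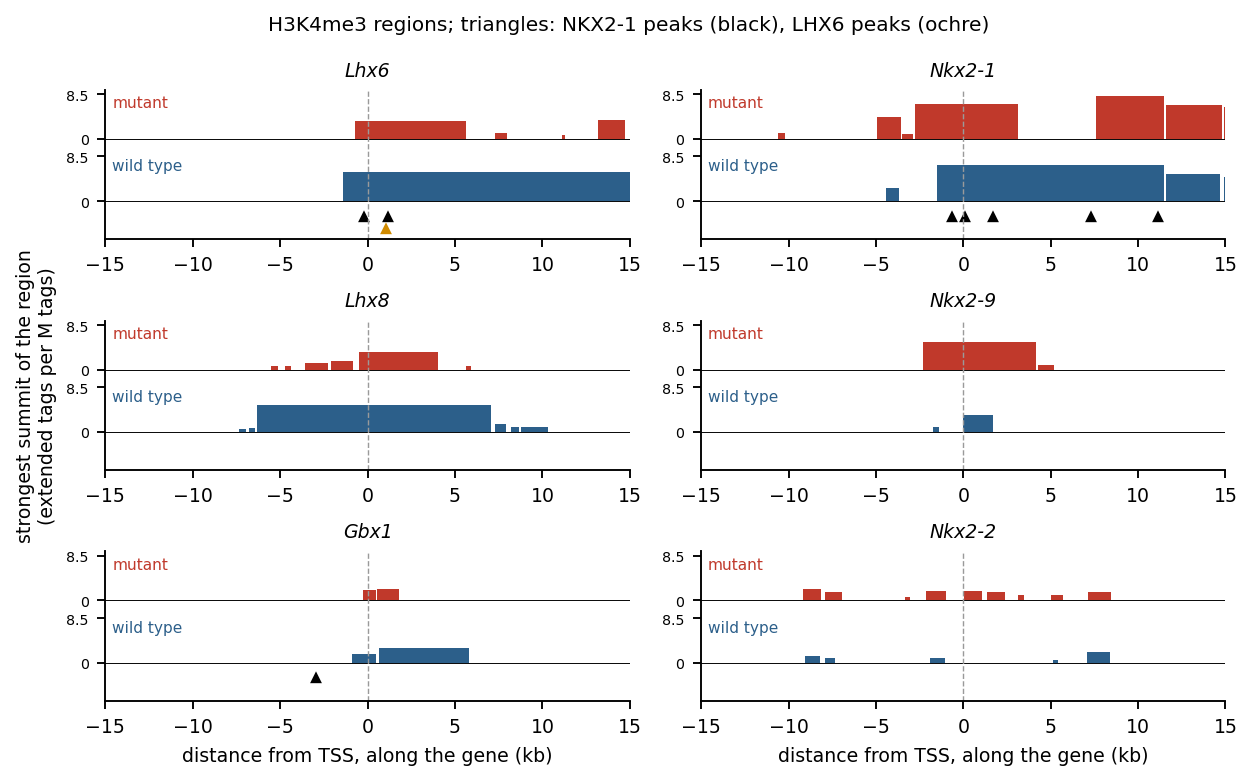
H3K4me3 regions around the TSS of 6 genes in the mutant (red, upper row of each panel) and wild type (blue, lower row), against distance from the TSS along the gene in kb, with the height of each block giving the region's strongest summit in extended tags per M. Triangles are NKX2-1 peaks (black) and LHX6 peaks (ochre); the wild-type Lhx6 and Lhx8 domains of 20.7 and 13.4 kb are shorter and broken up in the mutant, while Nkx2-9 has a mutant region of 6.46 kb against 1.72 kb in wild type.

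Across 35 transcription factors of the MGE and ventral telencephalon, 2 were called lower and 2 higher in the mutant, and at equal covered bases 7 were lower and 1 was higher. Covered length was smaller in the mutant, by any amount, at 15 of the 35 (42.9%), against 10.8% of all genes compared. At equal covered bases it was smaller at 21 (60%), against 21.0% of all genes. The median fold was 1.00 against 1.07 over all genes, and the median relative height 0.904 against 0.951. The genes called lower were Lhx8 and Gbx1, a homeobox gene, with 1.96 kb in the mutant and 5.71 kb in wild type. Its paralogue Gbx2 had 3.52 kb in the mutant and 4.91 kb in wild type and passed the limit at equal covered bases only. So did Maf, a bZIP factor of MGE interneurons, with 5.29 kb in the mutant and 6.94 kb in wild type, and Etv1, an ETS factor, with 5.72 kb in the mutant and 7.60 kb in wild type (fold 0.613 at equal covered bases).

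Several other regulators of MGE interneurons had shorter lengths in the mutant that did not reach 1.5-fold with the whole lists. Sox6, which acts below Lhx6, had 12.7 kb in the mutant and 14.1 kb in wild type, and Satb1, a chromatin organiser, had 7.2 kb and 8.01 kb. Zic1 and Zic4, zinc finger genes that share a promoter region, had 9.30 kb and 17.6 kb in the mutant against 11.3 kb and 19.9 kb in wild type. Sp9, a zinc finger gene of ventral progenitors and interneurons, was similar in length, with 9.55 kb in the mutant and 9.63 kb in wild type, but its height was 5.74 in the mutant and 6.45 in wild type, 0.691 relative to the median pair.

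The pan-ventral genes shared by MGE and LGE were close to equal in length. Dlx1 had 12.5 kb in the mutant and 12.6 kb in wild type, and Dlx6 had 10.5 and 10.4 kb. Gsx1, a homeobox gene of ventral progenitors, had 6.42 kb in the mutant and 6.20 kb in wild type (fold 1.03), but a height of 5.03 in the mutant and 2.60 in wild type, 1.5 relative to the median pair.

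The 2 genes of this list called higher were Nkx2-2 and Nkx2-4. Nkx2-2, a homeobox gene which patterns the ventral neural tube, had 3.98 kb in the mutant and 0.834 kb in wild type, a fold of 3.90 that stayed past the limit at equal covered bases (2.25). Its TSS was marked in the mutant alone. Nkx2-4, the closest relative of Nkx2-1, had 0.940 kb in the mutant and 0.376 kb in wild type in weak regions, and its fold of 1.90 turned to 0.399 at equal covered bases. Nkx6-2 and Otx2, further homeobox genes of the list, were within the limit in both settings, with 5.74 and 9.49 kb in the mutant against 4.74 and 8.30 kb in wild type. Nkx2-9, Dbx1 and Otp are outside the list and are described for the size of their difference in length or height. Nkx2-9, a relative of Nkx2-2 which lies near Nkx2-1 on chromosome 12, had 7.17 kb in the mutant and 2.07 kb in wild type (fold 3.20; 2.90 at equal covered bases). Height at Nkx2-9 was 5.26 in the mutant and 3.19 in wild type, and H3K27ac covered 5.42 kb in the mutant and was listed at 0 in wild type. Dbx1, a progenitor homeobox gene that marks the pallial-subpallial boundary and the septum, had 6.55 kb in the mutant and 2.12 kb in wild type (fold 2.87; 1.99 at equal covered bases), and its TSS was held by a mutant region alone. A weak wild-type region of 0.25 kb lay just upstream of it, from -0.43 to -0.18 kb (chr7:56892399-56892648). Otp, a hypothalamic homeobox gene, had 1.92 kb in the mutant and 0.378 kb in wild type, with its TSS marked in the mutant alone.

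The promoters of 3 genes whose TSS was marked in 1 genotype alone are shown as examples for their CpG content, since CpG-rich promoters are where H3K4me3 is usually laid down. Each sequence runs from 250 bases before to 50 bases after a TSS in the direction of the gene, on mm9, and capitals mark CG pairs. Dbx1 (chr7:56892170-56892469, minus strand) and Nkx2-2 (chr2:147011948-147012247, minus strand) had a TSS marked in the mutant alone, and the upstream part of the Dbx1 sequence overlaps the weak wild-type region described above. Htr3a (chr9:48719155-48719454, minus strand), the serotonin receptor gene of caudally derived interneurons, was marked in wild type alone.
Dbx1: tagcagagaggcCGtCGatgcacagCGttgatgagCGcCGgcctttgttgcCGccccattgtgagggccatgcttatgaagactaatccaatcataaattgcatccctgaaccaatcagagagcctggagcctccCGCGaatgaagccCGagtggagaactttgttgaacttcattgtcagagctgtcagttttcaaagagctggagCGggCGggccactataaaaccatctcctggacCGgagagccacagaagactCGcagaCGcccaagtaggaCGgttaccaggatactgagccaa
Nkx2-2: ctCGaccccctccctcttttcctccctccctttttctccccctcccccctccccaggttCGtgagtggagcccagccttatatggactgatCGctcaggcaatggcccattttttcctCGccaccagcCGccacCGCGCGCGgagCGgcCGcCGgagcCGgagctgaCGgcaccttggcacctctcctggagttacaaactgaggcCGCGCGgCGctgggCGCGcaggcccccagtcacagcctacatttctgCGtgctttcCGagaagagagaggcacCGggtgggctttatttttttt
Htr3a: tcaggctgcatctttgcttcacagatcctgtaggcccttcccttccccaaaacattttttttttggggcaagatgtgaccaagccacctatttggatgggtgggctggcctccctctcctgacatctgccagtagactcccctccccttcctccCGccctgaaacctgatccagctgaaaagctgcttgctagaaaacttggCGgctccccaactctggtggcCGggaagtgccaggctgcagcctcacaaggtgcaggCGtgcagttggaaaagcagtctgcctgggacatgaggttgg
Dbx1 holds 15 CG pairs and has a CpG observed to expected ratio of 0.695, and Nkx2-2 holds 23 with a ratio of 0.793. Both lie above the median of all 22202 protein-coding promoters, at the 62.1 and 72.6 percentiles. Htr3a holds 4 CG pairs, with a ratio of 0.169 at the 19.6 percentile. Its H3K4me3 was listed at 0 in the mutant and covered 0.536 kb in wild type, with a height of 1.11 there, a weak region.

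Genes of the LGE, the caudal ganglionic eminence (CGE) and the striatum had a summed covered length of 254 kb in the mutant and 208 kb in wild type. Of 33 such genes, 32 had a longer covered length in the mutant, by any amount, as did 89.0% of all genes compared, and Htr3a had a shorter one. Past the 1.5-fold limit 6 were higher and 1 lower, and at equal covered bases 1 of each. The median fold was 1.17, and 1.13 at equal covered bases, against 1.07 and 1.05 over all genes. The median relative height was 1.02, against 0.951 over all genes. H3K27ac was called higher at 14 of the 33, against 7.84% of all genes compared. This was not particular to the list, since H3K27ac was also called higher at 7 of 18 pallial genes and 4 of 13 Sonic hedgehog genes. Among 16 housekeeping genes it was called higher at 0.

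Among the LGE and CGE regulators, Pax6, expressed in dorsal LGE and pallial progenitors, had 15.3 kb in the mutant and 9.11 kb in wild type. Foxp2 and Foxp1, forkhead genes of striatal projection neurons, had 15.9 and 7.80 kb in the mutant against 10.2 and 5.03 kb in wild type. Foxp4 was just within the limit, with 6.81 kb in the mutant and 4.62 kb in wild type, and its height was 6.71 in the mutant and 3.85 in wild type. Ebf1, which acts in striatonigral neurons, had 8.12 kb in the mutant and 7.10 kb in wild type within 5 kb, and further into the gene a mutant region of 3.06 kb paired with a wild-type region of 0.287 kb. H3K27ac at Ebf1 covered 6.09 kb in the mutant and 0.251 kb in wild type. Isl1, the LIM-homeodomain gene of striatal and cholinergic neurons, had 9.86 kb in the mutant and 9.10 kb in wild type, with H3K27ac over 9.30 kb in the mutant and 4.61 kb in wild type.

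Genes of mature striatal neurons had short domains, of which some were called higher. Drd1a, a dopamine receptor gene of striatonigral neurons, had 3.1 kb in the mutant and 1.18 kb in wild type. Adora2a, the adenosine receptor gene of striatopallidal neurons, had 2.21 kb in the mutant and 1.36 kb in wild type, and of the 6 higher genes of this list it was the 1 that stayed past the limit at equal covered bases. Ppp1r1b, Drd2, Penk, Tac1 and Pdyn, further genes of striatal projection neurons, were within the limit in both settings. Drd2 had 2.23 kb in the mutant and 1.69 kb in wild type (fold 1.28), and Ppp1r1b had 1.78 and 1.53 kb (fold 1.14; 0.925 at equal covered bases). Bcl11b, a zinc finger gene of striatal and cortical neurons, had 8.41 kb in each genotype. CGE factors differed little in length, with Nr2f1 at 13.4 kb in the mutant and 13.0 kb in wild type and Prox1 at 8.46 and 8.23 kb, while Nr2f2 had 16.1 kb in the mutant and 12.4 kb in wild type.

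Of 30 genes of cortical interneurons, 2 were called lower and 0 higher, and at equal covered bases 3 and 0. Covered length was smaller in the mutant, by any amount, at 11 of 30 (36.7%, against 10.8% of all genes) and at 17 (56.7%, against 21.0%) at equal covered bases. Npy, a neuropeptide gene of MGE-derived interneurons, had 1.94 kb in the mutant and 4.28 kb in wild type, with a height of 4.77 in the mutant and 4.37 in wild type. Kcnc2, a potassium channel gene of fast-spiking cells, had 2.82 kb in the mutant and 4.44 kb in wild type. Kcnc2 reached a height of 6.19 in the mutant and 5 in wild type. Relative to the median pair the heights came to 0.848 at Npy and 0.962 at Kcnc2, against 0.951 over all genes. Sst, the somatostatin gene, had a short domain of 0.671 kb in the mutant and 1.07 kb in wild type and passed the limit at equal covered bases only.

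Genes of interneuron migration and contact were mixed. Erbb4, the neuregulin receptor gene, had 4.46 kb in the mutant and 5.36 kb in wild type, and Nxph1, which encodes a neurexin ligand, 4.80 and 5.90 kb. Elfn1, a synaptic adhesion gene, had 5.22 kb in the mutant and 5.98 kb in wild type. Cxcr4, a chemokine receptor gene, had 4.22 kb in the mutant and 4.02 kb in wild type. The enzyme and transporter genes common to all GABAergic neurons were close to equal, with Gad1 at 10.9 kb in each genotype, Slc32a1 at 10 kb in each and Gad2 at 8.62 kb in the mutant and 8 kb in wild type. Of 7 cholinergic genes, 0 were called in either direction with the whole lists, and 1 was lower at equal covered bases. A TSS was marked at 5 of the 7 in the mutant and at 7 in wild type. At Chat and Slc5a7 it was marked in wild type alone, as at 0.122% of all protein-coding genes, although both had mutant regions in the window. Slc5a7 had 1.11 kb in the mutant and 1.07 kb in wild type. Chat, the choline acetyltransferase gene, had 3.05 kb in the mutant and 3.21 kb in wild type.

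**Figure D2:**
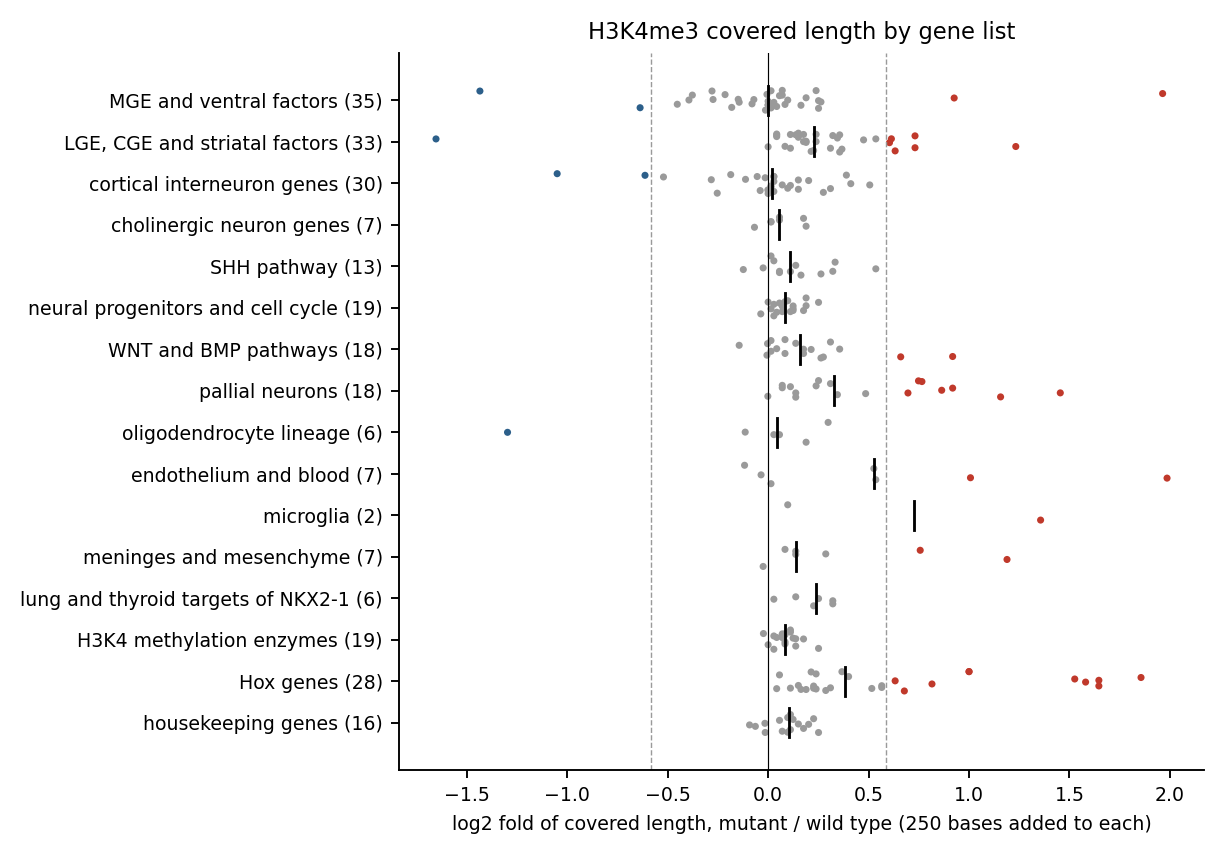
Log2 ratio of H3K4me3-covered length within 5 kb of the TSSs, mutant over wild type with 250 bases added to each, for the genes of 16 lists with the number of genes compared after each name. Each point is a gene (red past 1.5-fold higher in the mutant, blue past 1.5-fold lower, grey within), black bars are list medians and dashed lines the 1.5-fold limits; the medians are 0 for MGE factors (fold 1.00) and above 0 for LGE, CGE and striatal genes (1.17), pallial genes (1.26) and Hox genes (1.31).

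Pallial neuron genes, whose products mark the dorsal telencephalon and its neurons, had H3K4me3 in both genotypes. A TSS was marked at 15 of 18 in the mutant and 16 of 18 in wild type, and the summed length was 86.0 kb in the mutant and 61.3 kb in wild type. Covered length was larger in the mutant, by any amount, at 17 of 18, against 89.0% of all genes compared. Past the limit, 7 were higher and 0 lower, but at equal covered bases 2 were higher and 2 lower, and the median fold of 1.26 came to 1.06. Fezf2, a zinc finger gene of deep-layer cortical neurons, had 6.08 kb in the mutant and 3.23 kb in wild type and was higher in both settings. Lhx5, a LIM-homeodomain gene of the cortical hem and diencephalon, had 6.34 kb in the mutant and 2.15 kb in wild type and was also higher in both. Tbr1, a T-box gene of early cortical neurons, had 4.01 kb in the mutant and 2 kb in wild type in weak regions, and only 0.0490 kb of the mutant length was left at equal covered bases. The part that tissue beside the MGE could have in these values was not tested.

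In H3K4me3 length, most genes of signalling pathways were within the limit. Of 13 genes of Sonic hedgehog signalling, which induces Nkx2-1, 0 were called in either setting. Shh itself had 4.99 kb in the mutant and 5.46 kb in wild type, with H3K27ac over 0.498 kb in the mutant and 3 kb in wild type. Gli2, a transcriptional effector of the pathway, had 8.52 kb in the mutant and 6.79 kb in wild type, with a height of 6.60 in the mutant (5.66 to 7.65) and 3.40 in wild type (2.76 to 4.14), 1.51 relative to the median pair. Gas1 and Boc, co-receptor genes, had 5.50 and 4.03 kb in the mutant against 3.71 and 3.15 kb in wild type. Of 18 WNT and BMP genes compared, 2 were higher. Tcf7l2, a WNT effector gene, had 14.8 kb in the mutant and 9.31 kb in wild type and stayed past the limit at equal covered bases. Bmpr1b, a BMP receptor gene, had 5.67 kb in the mutant and 2.87 kb in wild type.

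Of 19 progenitor and cell cycle genes, 19 genes of H3K4 methyltransferase complexes and demethylases and 16 housekeeping genes, 0 were called in either direction in either setting. Their median folds were 1.06, 1.06 and 1.07, close to the 1.07 of all genes. Sox2, the neural stem cell factor, had 10.1 kb in the mutant and 9.96 kb in wild type. Wdr5, a core subunit of the methyltransferase complexes, had 3 kb in the mutant and 2.82 kb in wild type, and Kdm5b, an H3K4 demethylase gene, had 5 and 4.88 kb.

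Markers of other cells carried H3K4me3 within 5 kb of a TSS, in either genotype, at 7 of 12 genes of endothelium and blood, 7 of 8 of meninges and mesenchyme, 6 of 8 of the oligodendrocyte lineage and 2 of 6 of microglia. Pecam1, Tek, Tie1 and Gata1 of endothelium and blood, Cx3cr1, Csf1r, Aif1 and Tyrobp of microglia, Sox10 of oligodendrocytes and Lum of mesenchyme were listed at 0 in both genotypes. TSSs were marked at 5 of 12 endothelial and blood genes in each genotype, at 1 of 6 microglial genes in each, and at 5 of 8 meningeal and mesenchymal genes in the mutant and 4 of 8 in wild type. The summed lengths were higher in the mutant, at 18 against 12.4 kb for endothelium and blood, 2.80 against 1.68 kb for microglia and 19 against 15.7 kb for meninges and mesenchyme. The whole mutant list covered 1.22 times the wild-type bases. In endothelium and blood 2 genes were called higher, but 0 at equal covered bases, where the median fold of 1.44 came to 1.05. In meninges and mesenchyme 2 were higher, and at equal covered bases 2 were lower and 0 higher. In microglia 1 was higher in both settings. Of the 12 lung and thyroid targets of NKX2-1, 2 had a marked TSS in each genotype, and the surfactant genes Sftpb and Sftpd and the thyroid gene Tg were listed at 0. Gpr17, a gene of oligodendrocyte precursors, was listed at 0 in the mutant and covered 0.364 kb in wild type, with H3K27ac listed at 0 in the mutant and over 1.88 kb in wild type. P2ry12, a microglial receptor gene, had 1.41 kb in the mutant and 0.398 kb in wild type.

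Hox genes, which are Polycomb-repressed in the forebrain, served as weakly marked genes. Of 28 compared, 10 were higher and 0 lower, with summed lengths of 27.5 kb in the mutant and 16.8 kb in wild type. At equal covered bases 10 were lower and 0 higher, and the median fold of 1.31 turned to 0.720. A direction for genes with weak regions therefore depends on how the lists are matched.

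Over all genes, the largest shortfalls in covered length in the mutant after Lhx8 and Gbx1 were at D130058E05Rik, in the same stretch as Gbx2, with 4.29 kb in the mutant and 7.23 kb in wild type, and at Adamts5, a matrix protease gene, with 2.88 kb in the mutant and 5.46 kb in wild type. Rai2 had 3.12 kb in the mutant and 5.41 kb in wild type, carried an LHX6 peak, and had H3K27ac over 0.813 kb in the mutant and 4.61 kb in wild type. Gpr158, an orphan receptor gene of neurons, had 2.46 kb in the mutant and 4.73 kb in wild type, and Pde3a, a cyclic nucleotide phosphodiesterase gene, had 1.73 and 3.90 kb.

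The largest excess was at Zbtb20, a zinc finger gene with many TSSs, with 24.4 kb in the mutant and 17.1 kb in wild type, which was within 1.5-fold. Pax6, Sybu, Foxp2 and Tcf7l2 came next. Sybu, which encodes a kinesin linker of axonal transport, had 11.8 kb in the mutant and 5.95 kb in wild type. Mid1, a microtubule-associated ubiquitin ligase gene, had 11.4 kb in the mutant and 6.14 kb in wild type.

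**Figure D3:**
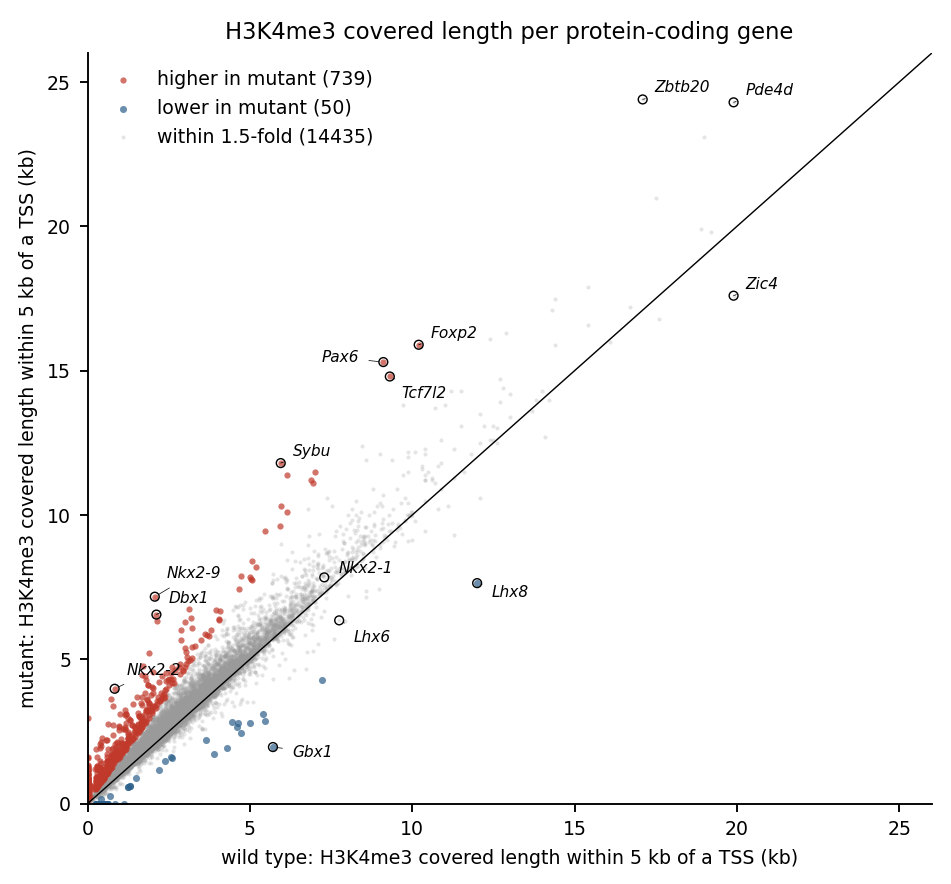
H3K4me3-covered length within 5 kb of the TSSs of each of 15224 protein-coding genes in kb, with the mutant on the vertical and wild type on the horizontal axis and the diagonal marking equal length. Red points are the 739 genes past 1.5-fold higher in the mutant and blue points the 50 past 1.5-fold lower; most of the cloud lies just above the diagonal, with Lhx8 at 7.64 against 12 kb and Gbx1 at 1.96 against 5.71 kb below it.

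Many called genes had little H3K4me3. Of the 50 lower genes, 27 had under 1 kb in both genotypes and 26 were listed at 0 in the mutant. Of the 739 higher genes, 396 had under 1 kb in both and 325 were listed at 0 in wild type. Under 1 kb in both held for 54.0% of the lower and 53.6% of the higher genes, against 8.18% of all genes compared. All genes are therefore not a background matched for length in the shares that follow. H3K27ac, measured in other libraries, differed at the called genes in the same direction more often than over all genes. It was called lower at 16 of the 50 (32.0%, exact 95% Clopper-Pearson interval 19.5 to 46.7), against 1.72% of all genes compared, and higher at 0. It was called higher at 165 of the 739 (22.3%, 19.4 to 25.5), against 7.84% of all genes, and lower at 22. H3K4me1 differed in both directions at the higher genes. It was called higher at 114 of the 739 (15.4%, against 4.04% of all genes) and lower at 60 (8.12%, against 4.11%). At the 50 lower genes it was called lower at 7 (14%) and higher at 0. H3K27me3 was called lower at 1 of the 50 (against 1.16%) and higher at 6 of the 50 and 55 of the 739 (against 12.3%). An LHX6 peak lay within 5 kb of 5 of the 50 lower genes (10%), 5 of the 739 higher genes (0.677%) and 84 of all genes (0.552%). An NKX2-1 peak lay at 20% of the lower genes, 2.84% of the higher genes and 12.6% of all. Both factor lists come from wild-type tissue, so sites bound in the mutant alone are not in them.

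By relative height, 31 of 14778 genes (0.210%) were lower in the mutant past 1.5-fold and 135 (0.914%) higher. Among genes whose wild-type summit reached the median height of wild-type regions, Lhx6 was lowest, and Lhx8, Gbx1, D130058E05Rik and Sp9 were among the next 7. At the other end stood genes with a low summit in wild type, led by Rab26, a vesicle GTPase gene, with 6.71 tags per M in the mutant and 1.46 in wild type.

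At the level of regions, nearly all wild-type H3K4me3 was also in the mutant list, and the mutant list held much that wild type did not. Of mutant regions, 71.93% overlapped a wild-type region by at least 1 base (exact interval 71.5 to 72.4), and 12251 did not. Of wild-type regions, 96.35% overlapped a mutant region (96.1 to 96.5), and 1266 did not. The mutant list covered 57.43 Mb and the wild-type list 46.99 Mb, with 45.7 Mb in common. Of the 11.8 Mb covered in the mutant alone, 54.2% lay in the flanks of shared regions and the rest in regions of their own. Wild type alone covered 1.31 Mb.

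The unshared regions were short and weak. Those found in the mutant alone had a median length of 385 bases and a median height of 0.857 tags per M, and those found in wild type alone 321 bases and 0.729. The lowest heights in the lists were 0.522 in the mutant and 0.520 in wild type. Of mutant regions of under 500 bases, 25.38% were shared, against 87.77% of wild-type regions of that length. From 1 to 2 kb the shares were 98.07% in the mutant and 99.89% in wild type, and every region of at least 4 kb was shared in both.

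Paired regions were longer and higher in the mutant. Among the 28778 pairs, the mutant region was longer in 86.3%, by a median of 127 bases, with a median length of 1226 bases in the mutant and 1050 in wild type. The height ratio was largest at short regions, with a median of 1.49 for wild-type regions of under 500 bases and 1.2 for those of at least 4 kb. In addition, 2068 mutant regions each spanned several wild-type regions, 4393 in all, while 308 wild-type regions spanned 635 mutant ones.

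**Figure D4:**
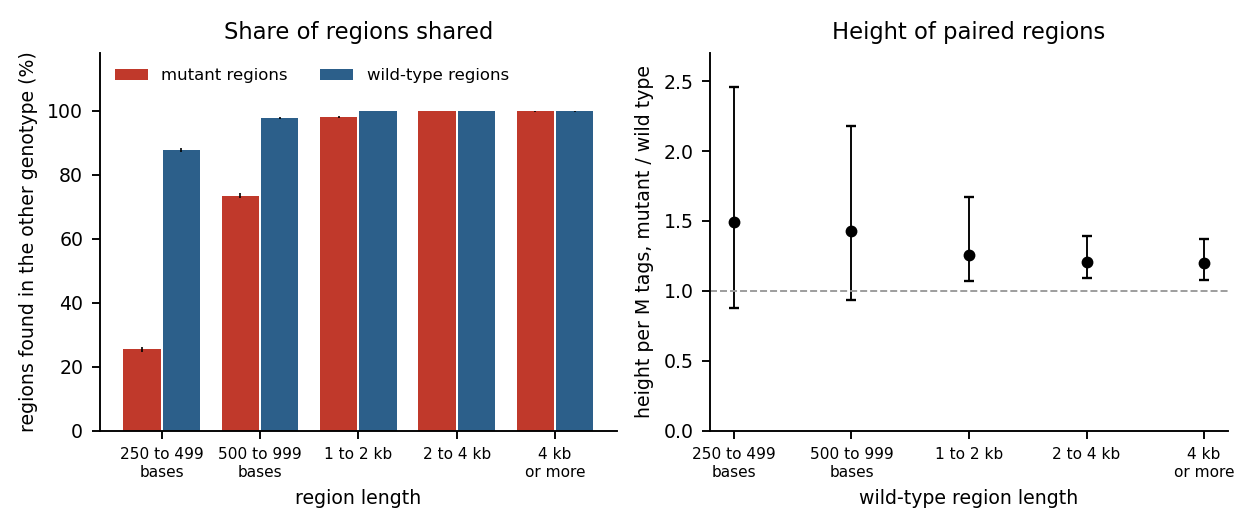
Left, share of H3K4me3 regions of each length class that overlap a region of the other genotype, in percent, for mutant (red) and wild-type (blue) regions with exact 95% intervals. Right, median ratio of summit height per M tags, mutant over wild type, in regions paired 1 to 1, by wild-type length, with bars from the 5th to the 95th percentile of pairs; short mutant regions were shared least (25.38%) and the ratio was 1.49 at the shortest and 1.2 at the longest regions.

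Broad domains, here regions of at least 4 kb, numbered 1561 in the mutant and 1127 in wild type. A TSS lay in 89.6% of the mutant and 89.1% of the wild-type domains. H3K27me3 of the same genotype lay on 43.0% of the mutant and 39.3% of the wild-type domains, against 20.6% and 20.5% of all regions. Overlap was counted from 1 base and all regions had a median length of 870 bases in the mutant and 971 in wild type. These shares are therefore not matched for length. Of mutant domains, 483 (30.9%) met no wild-type region of that length, and of wild-type domains 42 (3.73%) met no mutant one. The longest mutant domain, of 33.7 kb, joined Dlx5 and Dlx6 in 1 region over 3 wild-type regions, and the next, of 31.8 kb, lay at Sox2 over 4 wild-type regions. A mutant region of 23.0 kb at Nr2f1 spanned 7 wild-type regions. The wild-type domain of 20.7 kb at Lhx6, in contrast, met 4 mutant regions. The domains at Dlx5 and Dlx6 and at Lhx6, and wild-type domains at Gm5607 and Sfi1, overlapped regions of all 10 lists of the series, factor lists included.

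Single pairs pointed to the same genes and to a few others. The pair most shortened in the mutant lay in Gbx1, with 1.24 kb in the mutant and 5.17 kb in wild type. Another, 36.8 kb from Zfhx2, had an NKX2-1 peak and 2.06 kb in the mutant against 5.19 kb in wild type. The pair most lengthened lay at the TSS of Oprm1, the mu opioid receptor gene, with 4.79 kb in the mutant and 1.90 kb in wild type. At Foxp2 a pair of similar length (3.81 kb in the mutant, 3.44 kb in wild type) had a height of 5.96 in the mutant and 2.71 in wild type.

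The excess in the mutant grew with distance from promoters. Within 1 kb of a TSS the mutant covered 1.05 times the wild-type bases, from 1 to 5 kb 1.21 times, from 5 to 10 kb 1.37 times, from 10 to 50 kb 1.47 times and beyond 50 kb 1.64 times. A TSS was marked at 13859 genes in the mutant (62.4%) and 13560 in wild type (61.1%), with 13533 in common. It was marked in the mutant alone at 326 genes (1.47%), 206 of which had a wild-type region elsewhere in the window, and in wild type alone at 27 (0.122%), 20 of which had a mutant region there. By chromosome the ratio of region numbers ran from 1.19 on chromosome 7 to 1.35 on chromosome 3.

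Regions found in 1 genotype alone lay mostly far from promoters. A TSS lay in 1.96% of the mutant-alone and 1.42% of the wild-type-alone regions, against 39.6% of shared wild-type regions. The distance to the nearest TSS exceeded 10 kb at 74.2% of mutant-alone and 67.4% of wild-type-alone regions. Most overlapped H3K4me1, the enhancer mark, though less often than shared regions did. Shared regions were longer (median 1283 bases in the mutant list, 1021 in the wild-type list), so these shares are not matched for length. Mutant-alone regions overlapped mutant H3K4me1 at 79.7% and wild-type H3K4me1 at 70.6%, and wild-type-alone regions overlapped mutant H3K4me1 at 71.7% and wild-type H3K4me1 at 81.0%. Of shared regions, 92.5% of those in the mutant list overlapped mutant H3K4me1 and 91.6% of those in the wild-type list overlapped wild-type H3K4me1. H3K27ac overlap differed by genotype as well. Mutant-alone regions overlapped mutant H3K27ac at 56.6% and wild-type H3K27ac at 40.7%, and wild-type-alone regions overlapped mutant H3K27ac at 41.8% and wild-type H3K27ac at 62.6%.

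The strongest mutant-alone regions lay near Apof, Pgm2l1, Zbtb20, Dnm3, Brms1l, Nkx2-1, Abcc4 and Taf9b, with heights of 2.46 to 2.83. The strongest wild-type-alone regions lay near Lrch3, Tcf3, Dlg2, Kcnmb4, Nfib, Pde3a, Sos2 and Lhx8, with heights of 1.53 to 1.91. Of these 8, the regions near Kcnmb4 and in Sos2 carried peaks of both NKX2-1 and LHX6 and that in Nfib, a nuclear factor gene of the developing brain, an NKX2-1 peak. None of the 8 mutant-alone regions carried a peak of either factor, but both factor lists come from wild-type tissue.

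Binding of the factors in wild-type basal ganglia was spread unevenly over the unshared regions. Sites bound in the mutant alone are not in these lists, so a low share at mutant-alone regions is partly set by the design. An NKX2-1 peak lay on 1.68% of mutant-alone regions (206; interval 1.46 to 1.93), 20.7% of wild-type-alone regions (262; 18.5 to 23.0) and 9.77% of shared wild-type regions. An LHX6 peak lay on 0.416%, 8.93% and 1.37% of the same classes. Among short wild-type regions of under 500 bases, 32.2% of those with an NKX2-1 peak were absent from the mutant list (28.6 to 36.0; 206 of 639), against 10.7% of those without (9.99 to 11.3). The median height was 0.798 in both classes. From 500 bases to 1 kb the shares were 6.53% with a peak and 1.64% without, with median heights of 1.21 and 1.46. From 1 kb up they were 0.0489% and 0.0603%, 1 region and 9 regions. Over all lengths the shares were 7.43% with a peak and 3.22% without. This order rests on regions of under 1 kb. In the strongest 30 Mb of each list the shares without a mutant partner were 5.92% with a peak and 12.6% without. That cut ends at −log10 p of 167 in the mutant and 117 in wild type, so a wild-type region can lose its partner to the cut alone. At equal covered bases, where the mutant list alone was cut, the shares were 32.1% and 25.7%.

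For LHX6 the shares absent from the mutant list were 42.8% with a peak (36.1 to 49.7) and 11.5% without at under 500 bases, and 11.4% and 1.91% from 500 bases to 1 kb. Short mutant regions went the other way, since 34.2% of those with an NKX2-1 peak were absent from wild type, against 76.1% of those without. The factor lists come from wild-type embryos of another strain and from a larger dissection. A site active in the mutant alone could hardly be in them, which partly sets the shares for mutant regions. A region can carry both factors, so the shares for NKX2-1 and LHX6 are not independent.

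**Figure D5:**
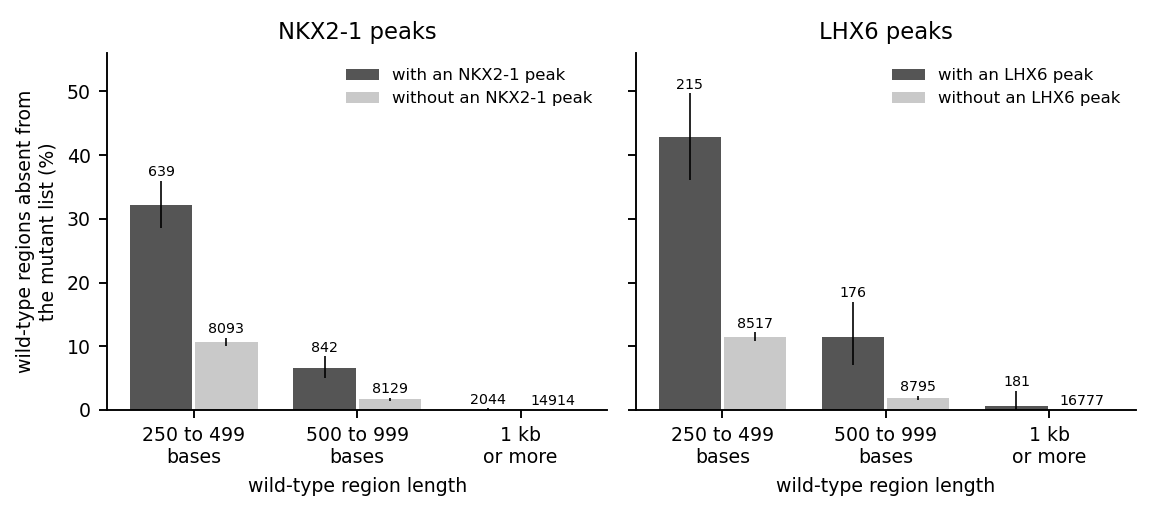
Share of wild-type H3K4me3 regions absent from the mutant list, in percent, for regions with (dark) and without (light) an NKX2-1 peak (left) or an LHX6 peak (right), by region length, with exact 95% intervals and the number of regions above each bar. At under 500 bases 32.2% of regions with an NKX2-1 peak were absent, against 10.7% of those without, and from 1 kb up the shares were under 1% in each class.

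Regions present in both genotypes showed the same split away from promoters. In pairs without a TSS, the median relative height was 0.986 with an NKX2-1 peak and 1.10 without. Of those with a peak 9.91% were lower in the mutant past 1.5-fold, against 2.61% of those without, and 4.25% were higher, against 13.2%. Median wild-type heights were 1.46 with a peak and 1.25 without, so these classes were not matched for strength. With an LHX6 peak the median relative height was 0.933 and 14.6% were lower, against 1.09 and 3.08% without. In pairs with a TSS, the median was 0.940 with an NKX2-1 peak and 0.955 without, and 0.0893% and 0.159% were lower. Pairs with a TSS and an LHX6 peak numbered 25.

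The wild-type-alone regions with NKX2-1 binding can be read at their sequence. CACTTGA and CACTCAA, cores known for NK2-family factors, were searched on both strands in 200 bases around NKX2-1 summits. A core was found at 35 of 161 summits in wild-type-alone regions (21.7%, 15.6 to 28.9), 522 of 3229 in shared regions (16.2%, 14.9 to 17.5) and 722 of 2960 outside H3K4me3 (24.4%, 22.9 to 26). Of all promoters of 300 bases, 6.05% hold a core. This is not a matched background, since promoters differ in length and in CpG observed to expected ratio (median 0.543, against 0.176 to 0.464 in the 3 summit classes). The 3 windows printed here were chosen after the values were seen, as the strongest wild-type-alone regions that hold a core. They lie 15.8 kb from the TSS of Sema5b (chr16:35525517-35525716), within Mical2 (chr7:119372604-119372803) and 13.9 kb from the TSS of Ypel1 (chr16:17055761-17055960), and are printed from the plus strand of mm9 with the core in capitals.
Sema5b: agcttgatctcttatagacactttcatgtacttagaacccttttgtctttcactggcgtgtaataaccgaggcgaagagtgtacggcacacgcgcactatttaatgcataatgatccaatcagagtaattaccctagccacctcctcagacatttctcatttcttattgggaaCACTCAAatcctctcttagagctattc
Mical2: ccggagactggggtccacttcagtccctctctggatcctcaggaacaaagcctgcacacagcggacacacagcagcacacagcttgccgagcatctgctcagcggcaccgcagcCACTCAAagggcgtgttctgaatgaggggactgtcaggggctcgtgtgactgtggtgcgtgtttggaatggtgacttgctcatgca
Ypel1: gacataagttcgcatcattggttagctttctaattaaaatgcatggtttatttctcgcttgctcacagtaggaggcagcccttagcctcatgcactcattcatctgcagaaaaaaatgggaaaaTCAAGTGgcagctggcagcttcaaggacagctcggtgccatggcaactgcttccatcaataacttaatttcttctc
Their wild-type H3K4me3 regions were 777, 565 and 481 bases long, with heights of 1.39, 1.32 and 1.32 tags per M, and the mutant list has no region that overlaps them. Sema5b encodes a semaphorin of axon guidance and Mical2 an actin-oxidising monooxygenase. The Ypel1 window carries the core on the minus strand.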

How the data were processed

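H3K4me3 was compared between 1 mutant and 1 wild-type library, grouped by the genotype in the labels. The genome build was mm9, and the tools were MACS2 2.1.0, BWA 0.6.2, bcl2fastq 1.8.4 and CASAVA 1.8.2, per the submitters' processing notes, which give no order. Peak calling by the authors used MACS 2.1.0.20140616, per the file headers, with input as control and a limit of 1.0e-05 on the p-value. It kept 1 tag per position, extended tags to 250 bases, set no local background and split summits. Deposited for each summit are the pileup of extended tags (a signal), the −log10 p-value, the fold enrichment (a ratio) and the −log10 q-value, which the authors' headers call not calculated and which was not used. The deposited fold equalled the pileup over a constant background, so input does not enter it. Named regions of equal pileup also had equal −log10 p. The mutant-alone regions near Nkx2-1, Abcc4 and Taf9b, each with a pileup of 66, all had 58.9. The calls may therefore not be corrected for input at each site.

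Entries with the same coordinates were merged, with the values of the strongest summit; a gene's height used every summit in its window. GENCODE vM1, on the NCBIM37 assembly that mm9 follows, gave the genes and 45971 TSSs. Of 297 entries in 16 gene lists, 294 matched (Slc18a3, Disp1 and Sox1 did not). Intervals are exact 95% Clopper-Pearson or Poisson intervals and cover counting error only. For equal covered bases the mutant list was cut to its 23745 strongest regions by −log10 p. Named genes were list genes past 1.5-fold in both settings, the 12 largest differences each way, the 8 strongest unshared and 6 longest regions, and genes given for their role. The tools were bedtools 2.31.1, samtools 1.23.1 and, in Python 3.11.15, pandas 2.3.3, numpy 2.4.6, pysam 0.24.0, scipy 1.17.1 and matplotlib 3.10.9, and overlaps were tested on simulated data.

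Members, lists and rules were chosen with earlier results of these data known. Heights, the strongest 30 Mb of each list, the scaled height limit, the shares by factor peak, the protocadherins and the summit sequences were added after seeing the data. The 10 input and IgG libraries were not analysed here. Results for some genes are left out of the text, and promoters and summit windows on chromosome 18 were not considered for printing.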

Additional observations from a re-analysis of the deposited data

How the results depend on the processing

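No paired analysis was possible because each genotype has 1 H3K4me3 library and no result comes from a test. The share of mutant regions that overlap wild type (71.93%) was 67.59% with an overlap of at least 50%, 74.09% at −log10 p of at least 10, 99.31% at equal covered bases, 85.77% at equal numbers of regions, 74.52% with regions within 1 kb joined, 74.6% after scaling heights and 98.59% in the strongest 30 Mb. For wild-type regions (96.35%) the same settings gave 95.62%, 97.04%, 73.62%, 91.92%, 97.11%, 95.63% and 88.2%. The mutant list held 1.26 times as many regions, but 0.685 at equal covered bases and 0.88 in the strongest 30 Mb. The median length, mutant minus wild type, was -101 bases, and -123 at the stricter limit, -196 joined, -102 without regions in all 10 lists, -51 after scaling, 692 at equal covered bases and 276 in the strongest 30 Mb. TSSs marked in the mutant alone (326) numbered 129 at equal covered bases and 131 in the strongest 30 Mb, and in wild type alone (27) 193, 981 and, at equal numbers of regions, 41. Lower genes (50) numbered 33 with a window of 2.5 kb, 19 with 1000 bases added, 29 at 2-fold, 479 at equal covered bases and 1162 in the strongest 30 Mb, and higher genes (739) numbered 261 with 1000 bases added, 414 at 2-fold, 121 and 264. Wild-type regions with an NKX2-1 peak absent from the mutant (7.43%) made up 9.33% with an overlap of 50%, 6.31% at the stricter limit, 32.1% at equal covered bases, 13.8% at equal numbers, 8.62% after scaling and 5.92% in the strongest 30 Mb, and those without a peak (3.22%) 3.82%, 2.57%, 25.7%, 7.43%, 3.89% and 12.6%, and 2.43% joined. The cuts by strength take regions from both lists by construction, or from the mutant list alone. Broad domains were 1.29 to 1.39 times as many in the mutant across settings, but the settings could hardly change this. Equal covered bases left 1560 of 1561 mutant and all 1127 wild-type domains in place. No setting adjusts region length for the higher mutant signal. Of 32 named genes, 26 kept their call at equal covered bases, where a lower gene cannot lose it, and 30 with a window of 10 kb. Weak regions near the lowest summit of 0.522 or 0.520 tags per M are where depth limits the comparison.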

Other observations

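The protocadherin beta genes, a cluster on chromosome 18 that encodes neuronal adhesion proteins, stood together among the lower genes, a family noticed after the values were seen. All 18 had some H3K4me3, 7 were called lower in the mutant and 0 higher, and 15 had a shorter covered length in the mutant. These 7 are among the 50 lower genes of the whole comparison. The summed length was 8.13 kb in the mutant and 12.5 kb in wild type, and the median height of the genes 0.969 in the mutant and 1.16 in wild type. Of 16 with a height in both genotypes, 9 were lower past 1.5-fold relative to the median pair, with a median of 0.651. Pcdhb17 had 0.586 kb in the mutant and 1.24 kb in wild type, and Pcdhb10 had 0.250 and 0.704 kb. Pcdhgc5, the protocadherin gamma gene measured at the same locus, went the other way, with 23.1 kb in the mutant and 19 kb in wild type. No beta gene exceeded a height of 1.70 in wild type, neighbouring genes share windows, and the genes are near-identical copies between which tags may be split, so single members are uncertain.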
